A study of Homo sapiens with 6 samples.

Results

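The annexins are a family of proteins that bind acidic phospholipids when calcium is present. RNA counts of 10 of them, ANXA1, ANXA2, ANXA3, ANXA4, ANXA5, ANXA6, ANXA7, ANXA8, ANXA10 and ANXA11, were compared between HGC-27 cells made to overexpress GC0643 and HGC-27 cells with the vector. The members were chosen by symbol, with earlier results of these data known. They were matched through their Ensembl IDs to GENCODE version 44, among the 58825 genes of the count table. Of the 10 members, 7 passed the filter on low counts and were tested, beside 19528 genes tested in all. ANXA3, ANXA8 and ANXA10 were not tested, as almost no reads were counted for them.

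HGC-27 is an established human gastric cancer cell line, and GC0643 is a gene that the study predicted from sequence missing from the reference genome. The series holds 6 libraries, 3 of GC0643 overexpression and 3 of Vector control, each with replicates numbered 1 to 3. The study describes stable GC0643 lines made by retroviral infection and puromycin selection, and does not say apart how the vector line was made. The question was which genes differ in expression when GC0643 is overexpressed. The study's methods speak of independent repeats for cell culture experiments in general, without naming these libraries, and do not say whether a line was 1 clone, so p-values measure the spread between these libraries, which may be technical. GC0643 was not analysed here, so nothing in these results checks which libraries overexpress it, and the groups are named throughout as they are labelled.

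Annexins share a core of repeated domains, each of which can hold calcium and so dock the protein on a membrane. ANXA1 and ANXA2 have an N-terminal tail that binds partner proteins of the S100 family, S100A11 for ANXA1 and S100A10 for ANXA2. The family is known for membrane repair, for the traffic of vesicles, for the binding of exposed phosphatidylserine, which makes ANXA5 a reagent for dying cells, and, in the case of ANXA1, for the control of inflammation. ANXA10 is a gene of normal gastric epithelium.

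The calcium-binding loop of the repeats can be read in the coding sequences. Stretches of 60 bases are shown for 6 of the tested members. Loops of this kind are written in codons of low or high GC content, and GC content bears on every comparison that follows. Capitals mark an in-frame match to GGNNNNGGNACN that is followed by a codon starting with GA or AA. The sequences are the sense strand of the coding sequence of the GENCODE version 44 canonical transcript on GRCh38, around the first match. That match began at codon 129 in ANXA1 and 107 in ANXA6, but at codon 31 in ANXA4 and 30 in ANXA5. The stretches thus need not come from the same repeat.
ANXA1: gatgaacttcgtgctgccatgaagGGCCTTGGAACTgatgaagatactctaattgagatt
ANXA4: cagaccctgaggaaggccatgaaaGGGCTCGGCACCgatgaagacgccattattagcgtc
ANXA5: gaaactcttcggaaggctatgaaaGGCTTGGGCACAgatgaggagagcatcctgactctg
ANXA7: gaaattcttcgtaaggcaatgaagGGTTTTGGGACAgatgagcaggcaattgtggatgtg
ANXA6: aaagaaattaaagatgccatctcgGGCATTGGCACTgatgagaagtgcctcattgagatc
ANXA11: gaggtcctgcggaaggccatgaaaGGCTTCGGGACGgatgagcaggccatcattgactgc

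In the stretches of ANXA1 and ANXA6, 43.3% of bases were G or C, against 56.7% in that of ANXA4 and 60% in that of ANXA11. The stretches did not follow the GC content of the whole transcript, which was 40.9% for ANXA4 and 53.8% for ANXA6. All 10 members held at least 1 match. ANXA6, whose core has more repeats than those of the others, held 4, ANXA4, ANXA5 and ANXA11 held 3 each, ANXA7 held 2, and ANXA1 and ANXA2 held 1 each. Among 19595 coding sequences searched on the coding strand, 500 held a match (2.55%) and 8 held at least 3 (0.0408%). A match describes the letters and is no test of calcium binding.

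Over the canonical transcript, GC content was 40.8% for ANXA1, 40.9% for ANXA4, 42.7% for ANXA7, 43.3% for ANXA5, 47.4% for ANXA2, 52.5% for ANXA11 and 53.8% for ANXA6. The noncoding ends held fewer G and C bases still in ANXA1 (30%), ANXA7 (33.5%) and ANXA4 (35.7%). In ANXA11 the coding sequence held 59.3% G or C and in ANXA6 53.7%. The median over all genes tested was 49.4%, and that over the 7 tested annexins 43.3%.

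Total counts ranged from 20376722 to 24069166 per library. Of these, the 10 annexins took 0.11% to 0.115% in the libraries of GC0643 overexpression and 0.0977% to 0.114% in those of Vector control. Markers of gastric epithelium were close to absent: of 15 listed, 1 passed the filter (KRT8, a keratin, at a mean of 6.22 CPM, the read count scaled to the size of the library, against 5.83 CPM in Vector control) and 5 had no count in any library. EPCAM and CDH1, epithelial adhesion genes, had means of 0.253 and 0.144 CPM in GC0643 overexpression. The list summed to 4.9 to 9.61 CPM with GC0643 and to 6.49 to 7.68 CPM with the vector, whereas 7 mesenchymal markers summed to 3500 to 3830 and 3500 to 3730 CPM. Fibroblast markers summed to 4350 to 5130 and 4310 to 4950 CPM, with COL3A1, a fibrillar collagen gene, at a mean of 2540 and 2510 CPM. Cells labelled as gastric cancer thus held almost no RNA of gastric epithelial markers, and neither the line nor its labels were checked further. At an unadjusted p under 0.05, 5 of the 9 fibroblast markers were higher with GC0643 (13.1% of all genes were), and 3 after GC correction (2.87% of all genes), while their median log2 fold change went from 0.46 to 0.17. Alpha globin was counted with HBB at 0, and the 5 erythroid markers summed to 15.5 to 21.3 against 26.9 to 32.9 CPM. The 2 of them tested, HBA1 and HBA2, were lower at an unadjusted p under 0.05 (5.26% of all genes were), each with a fold change past 1.5. Both were still past that p after GC correction (3.24% of all genes in this direction). Whether reads of 1 of these genes were counted for the other was not tested. The 6 endothelial markers summed to at most 1.03 CPM, and the 10 leukocyte markers to 6.56 to 7.54 against 7.42 to 8.57 CPM. The part of these differences in the annexin results was not tested.

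One library stood apart from its group. Over 6682 genes with a GC content under 45%, the median log2 CPM, centred on the mean of the 6 libraries, was 0.19, 0.07 and 0.18 in GC0643 overexpression and -0.20, 0.07 and -0.29 in Vector control. Over 6243 genes with a GC content above 55% it was -0.13, -0.04 and -0.10 against 0.11, -0.04 and 0.22. Vector control replicate 2 thus had the same medians as GC0643 overexpression replicate 2 and lay away from the other two Vector control libraries. It was thus picked out from these same values, as the Vector control library nearest to the other group. Leaving it out tends to widen the differences by the way it was chosen, and is no independent test. Calls that turn on it are given with and without it.

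No gene passed an adjusted p of 0.05 in edgeR's quasi-likelihood test (0 of 19528 genes, 0.0%), and so none of the annexins did. At an unadjusted p under 0.05, 3581 genes passed (18.3%). At the same adjusted threshold the likelihood ratio test called 16 genes, DESeq2 called 11 and limma voom called 0, and no annexin was among them. Of the 7 tested annexins, 3 passed the unadjusted p, ANXA1 and ANXA4 in the higher direction (2 of 7, against 13.1% of all genes) and ANXA11 in the lower (1 of 7, against 5.26%). ANXA1 also had a fold change over 1.5, as 1.6% of genes did in this direction at that p. Log2 fold changes, always GC0643 overexpression over Vector control, were positive for 5 of the 7 annexins and for 51.9% of all genes. Their median was 0.18 for the annexins and 0.02 for all genes tested. As RNA of whole cultures was measured, fewer cells of a kind and less RNA per cell cannot be told apart.

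ANXA1 lies on the forward strand of chromosome 9 (chr9:73151865-73170393, GRCh38). Its protein is secreted in part and signals through formyl peptide receptors. It was counted 2179, 2057 and 1932 times in GC0643 overexpression and 1132, 1699 and 1190 times in Vector control. Scaled by edgeR's TMM, these were 102, 97.1 and 95.3 CPM against 55.8, 82.4 and 49.5 CPM. The groups did not overlap, and Vector control replicate 2 was the library nearest to the other group. The means were 98.0 ± 3.3 and 62.6 ± 17.5 CPM (SD, n = 3 each), and the spread among the Vector control libraries was the larger. The log2 fold change was 0.65 with a standard error of 0.16 (95% interval 0.30 to 1.00), a fold change of 1.57 (edgeR, adjusted p = 0.26). Without Vector control replicate 2 it was 0.90 (edgeR, adjusted p = 0.01). Leaving out Vector control replicate 1 or replicate 3 gave 0.56 or 0.50, and the fold changes of 1.48 and 1.41 were then under 1.5. With no filter on low counts the log2 fold change stayed at 0.65 and the adjusted p was 0.0025 (edgeR). In that setting 224 genes passed an adjusted p of 0.05, against 0 with the filter. The lower p of ANXA1 thus came with the setting and not with a larger difference.

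ANXA11 binds RNA granules and tethers them to lysosomes in transport. On chromosome 10 (chr10:80150889-80205572, reverse strand), it was the 1 member lower with GC0643 at an unadjusted p under 0.05. It stood at 94.5, 106 and 99.9 CPM in GC0643 overexpression and at 123, 112 and 137 CPM in Vector control. All 3 Vector control libraries lay above all 3 of GC0643 overexpression, with means of 100 ± 5.54 and 124 ± 12.2 CPM (SD, n = 3 each). The log2 fold change was -0.31 with a standard error of 0.12 (95% interval -0.57 to -0.05, edgeR, adjusted p = 0.26). Without Vector control replicate 2 it was -0.37 (adjusted p = 0.036).

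ANXA4, an annexin of secretory epithelia, is encoded on chromosome 2 (chr2:69644425-69827112, forward strand). It stood at 30.2, 22.1 and 25.2 CPM with GC0643 and at 17.9, 21.7 and 18.8 CPM with the vector. The groups did not overlap, but GC0643 overexpression replicate 2 and Vector control replicate 2 were close to each other. The log2 fold change was 0.41 with a standard error of 0.15 (95% interval 0.08 to 0.74, edgeR, adjusted p = 0.26). With Vector control replicate 2 left out it was 0.50 (edgeR, adjusted p = 0.036), and with GC0643 overexpression replicate 1 left out it was 0.28 (edgeR, adjusted p = 0.48). The span of ANXA4 overlaps AAK1, a kinase gene on the other strand, whose counts came to 237% of those of ANXA4, and the strand setting of the counting is not stated for these libraries. For tumour tissue, with the same counting tool, the study lists options that hold no strand setting and that assign a read to each gene it overlaps.

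ANXA5 (chr4:121667946-121696995, reverse strand) stood at 137, 133 and 131 CPM in GC0643 overexpression and at 114, 126 and 99.9 CPM in Vector control. Again the groups did not overlap and Vector control replicate 2 was the nearest library. The log2 fold change of 0.24 had a 95% interval of -0.02 to 0.50 and included 0 (edgeR, adjusted p = 0.29). In all, 3 of the 7 tested annexins had groups that did not overlap in the higher direction, against 11.8% of all genes, and 1 in the lower direction, against 10.5%.

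ANXA2, which with S100A10 forms a complex that binds plasminogen at the cell surface, had the highest level. On chromosome 15 (chr15:60347134-60402883, reverse strand), it stood at 475, 470 and 505 CPM with GC0643 and at 430, 494 and 354 CPM with the vector. Vector control replicate 2 lay among the libraries of GC0643 overexpression, so the groups overlapped. The log2 fold change was 0.18 (95% interval -0.09 to 0.45, edgeR, adjusted p = 0.41), which leaves a difference of either sign within its error.

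ANXA6, an annexin of endosomes and of cholesterol transport, lies on chromosome 5 (chr5:151100706-151157815, reverse strand). It stood at 217, 228 and 215 CPM against 252, 227 and 270 CPM. The Vector control libraries were higher but for replicate 2, which lay just under the highest library of GC0643 overexpression. Its log2 fold change was -0.18 (95% interval -0.43 to 0.06, edgeR, adjusted p = 0.36). ANXA7, which binds membranes in granule secretion, lies on chromosome 10 (chr10:73375101-73414076, reverse strand) and stood at 67.4, 69.1 and 74.3 CPM against 62.2, 77.3 and 50 CPM. Its highest library and its 2 lowest were all of Vector control, and the log2 fold change was 0.15 (95% interval -0.17 to 0.48, edgeR, adjusted p = 0.55). A long noncoding gene on the other strand within the span of ANXA7 had 19.4% of its counts.

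**Figure D1:**
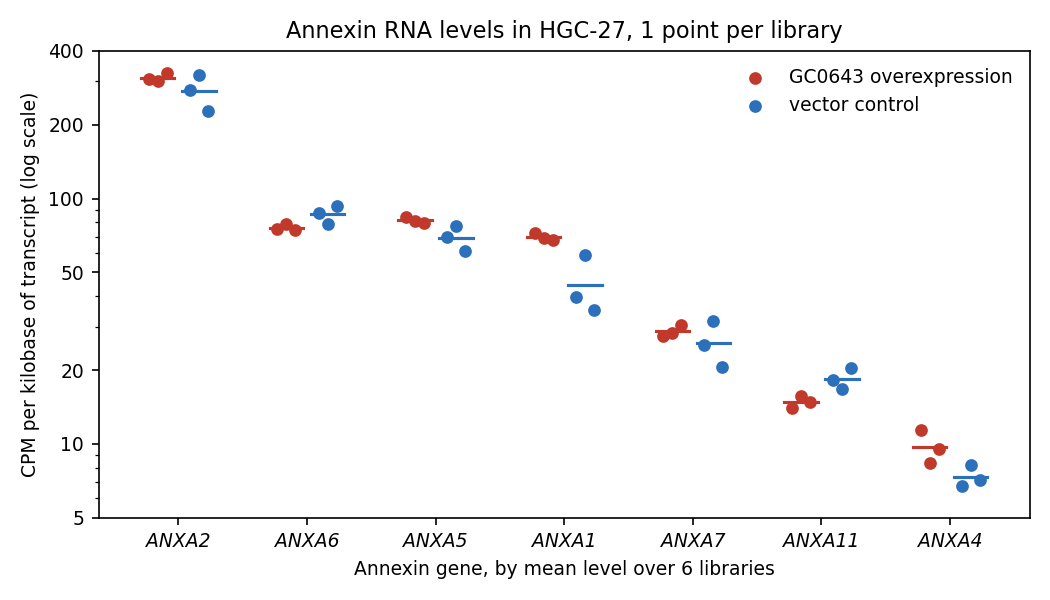
Level of each tested annexin in the 6 libraries, in TMM-scaled CPM per kilobase of the canonical transcript on a log axis, with points for libraries in replicate order from left to right and bars for the group means. ANXA1 stood at 68.0 to 72.6 with GC0643 and at 35.3 to 58.8 with the vector, and ANXA2 lay above all other members in every library.

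**Figure D2:**
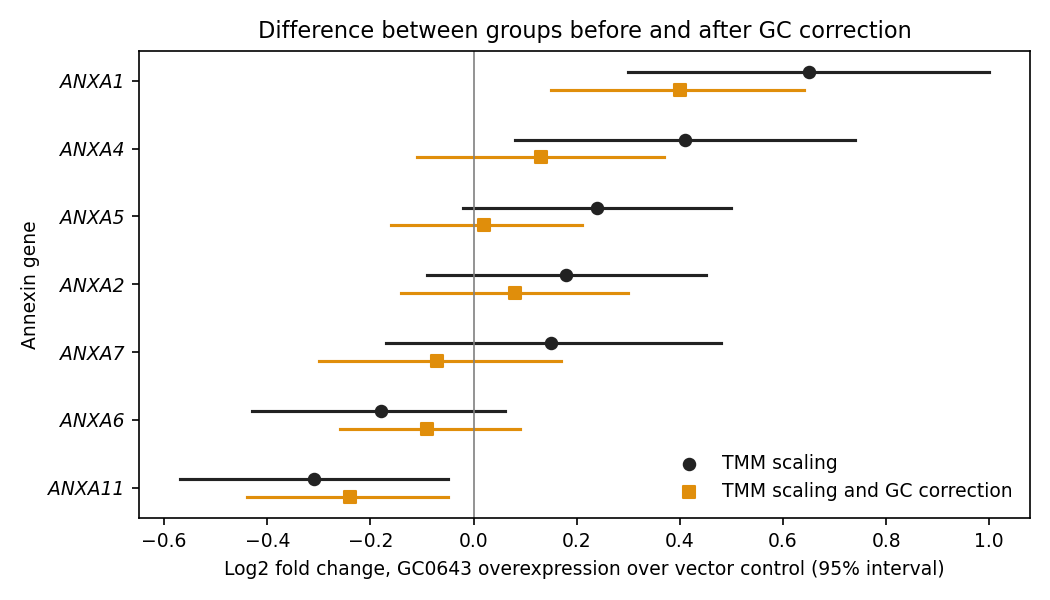
Log2 fold change of each tested annexin, GC0643 overexpression over Vector control, with the 95% interval of edgeR's quasi-likelihood test, before and after correction for GC content. The interval of ANXA1 ran from 0.30 to 1.00 before the correction and from 0.15 to 0.64 after it, and that of ANXA4 from 0.08 to 0.74 before and from -0.11 to 0.37 after it.

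The remaining members were at or near 0. ANXA8 and ANXA10 had no count in any library, and ANXA3 had 1 count in each of 3 libraries. At these depths 3 counts, the most that a count of 0 allows, are 0.125 to 0.148 CPM, an error of counting alone. ANXA10 lies on chromosome 4 (chr4:168092537-168187736, forward strand), and ANXA3 lies on the same chromosome (chr4:78551747-78610451, forward strand). ANXA13, an annexin of the intestine and kidney outside the list, had 1 count in all. ANXA9, a distant member that lacks most of the calcium-binding loops, stood at 2.85 CPM with GC0643 and 3.27 CPM with the vector on average, with a log2 fold change of -0.20 (95% interval -0.74 to 0.35, edgeR, adjusted p = 0.66).

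A count of 0 for ANXA8 has a further limit. ANXA8 (chr10:47460162-47484158) and its copy ANXA8L1 (chr10:46375627-46391784) were 99.5% identical over 984 coding bases, with runs without a difference of up to 408 bases. Reads from such runs cannot be assigned to 1 gene, and how reads with several positions were counted is not stated for these libraries. For its tumour tissue the study counted uniquely mapped reads, under which reads shared by both copies would be lost. Both genes together had 2 counts, those of ANXA8L1 in Vector control replicate 3.

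ANXA2 has the same limit on a smaller scale. The processed pseudogene ANXA2P2 on chromosome 9 (chr9:33624274-33625293, forward strand) differs from the coding sequence of ANXA2 at 16 of 1020 bases (98.4% identical) and holds no difference over runs of up to 221 bases. The 60 bases with the most differences, positions 161 to 220 of the ANXA2 coding sequence and chr9:33624434-33624493 for the pseudogene on GRCh38, are shown to let the copies be told apart. Capitals mark the 5 differing bases.
ANXA2: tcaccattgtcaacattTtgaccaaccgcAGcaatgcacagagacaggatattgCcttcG
ANXA2P2: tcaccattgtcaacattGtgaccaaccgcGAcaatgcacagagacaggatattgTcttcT

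The counts of ANXA2P2 were 6.81%, 6.80% and 6.49% of those of ANXA2 in GC0643 overexpression and 6.08%, 6.35% and 7.39% in Vector control. The ratio differed little between libraries, and whether the pseudogene's counts come from ANXA2 reads was not tested. ANXA2P2 had a log2 fold change of 0.21 (95% interval -0.07 to 0.50, edgeR, adjusted p = 0.36). With ANXA2 and its 3 pseudogenes summed to 1 row, the log2 fold change was 0.18 (edgeR, adjusted p = 0.399), the value of ANXA2 alone. ANXA2R, a separate gene named as an ANXA2 receptor, had a mean of 6.04 CPM with GC0643 and 6.84 CPM with the vector (log2 fold change -0.18, edgeR, adjusted p = 0.60).

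Levels were compared between members per kilobase of transcript. On this scale the mean over 6 libraries was 293 CPM per kilobase for ANXA2, 81.2 for ANXA6, 75.4 for ANXA5, 57.3 for ANXA1, 27.3 for ANXA7, 16.6 for ANXA11 and 8.55 for ANXA4. The low place of ANXA11 depends on its canonical transcript of 6734 bases, the longest of the family. ANXA6 and ANXA5 were neighbours whose order differed between the groups, with no correction for GC content. ANXA5 was above ANXA6 with GC0643 (81.6 ± 2.06 against 76.0 ± 2.41 CPM per kilobase), and ANXA6 was above ANXA5 with the vector (86.4 ± 7.51 against 69.2 ± 8.07, SD, n = 3). The ranges of ANXA5 and ANXA1 overlapped over the 6 libraries, but ANXA1 was below ANXA5 in each one. The order of the other neighbours was the same in all 6 libraries, by the least for ANXA7 over ANXA11 in Vector control replicate 3, a ratio of 1.01. With the GC correction described below, ANXA6 was above ANXA5 per kilobase in all 6 libraries, so their change of order did not outlast it.

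The summed level of the family was 590, 584 and 602 CPM per kilobase with GC0643 and 524, 589 and 465 with the vector, and Vector control replicate 2 lay among the libraries of GC0643 overexpression. Shares of this sum do not depend on the scaling between libraries. ANXA1 made up 12.3%, 11.9% and 11.3% of it in GC0643 overexpression and 7.60%, 9.99% and 7.59% in Vector control, a difference of 3.42 percentage points (exact permutation test, two-sided, p = 0.1, the smallest that 3 libraries against 3 allow; adjusted over the 7 members, p = 0.28). The share of ANXA11 was lower, at 2.38%, 2.69% and 2.46% against 3.48%, 2.83% and 4.36%, with the same exact p. The share of ANXA6 was 12.8% ± 0.587 against 16.7% ± 3.38 (SD, n = 3), and the groups overlapped (exact permutation test, p = 0.2). ANXA2 made up 52.5% ± 1.28 and 51.9% ± 2.65 (exact permutation test, p = 0.8), and the shares of ANXA4, ANXA5 and ANXA7 differed by less than 1 percentage point. On CPM not divided by length the differences were 2.66 points for ANXA2, 1.13 for ANXA5, 2.81 for ANXA1, -2.97 for ANXA11 and, the largest, -4.36 for ANXA6. The design cannot reach an exact p of 0.05.

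**Figure D3:**
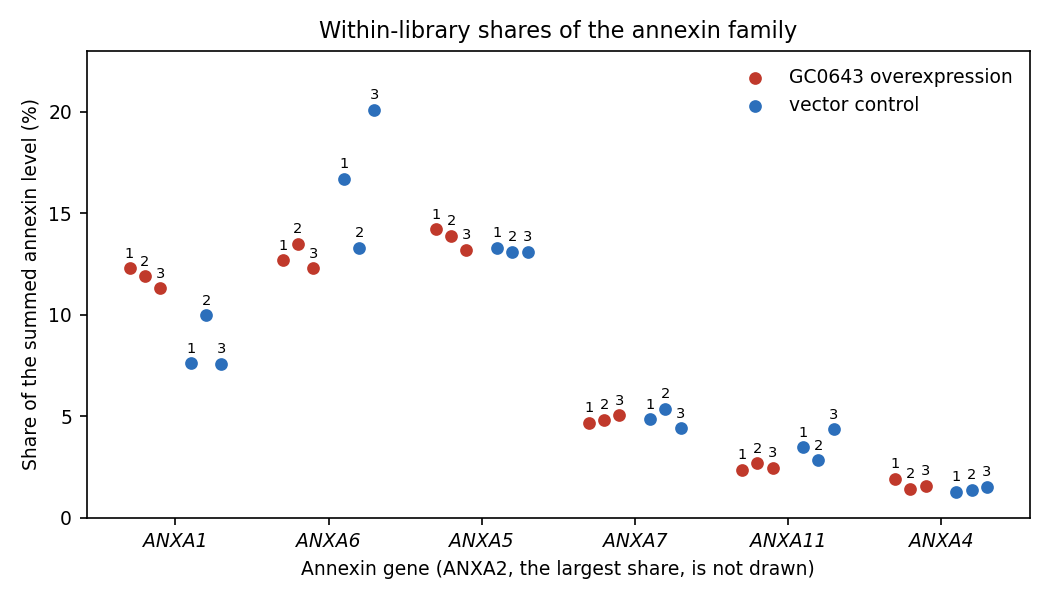
Share of each tested annexin in the summed annexin level of its library, in percent, on CPM per kilobase, with points for libraries and replicate numbers above them. ANXA1 took 11.3% to 12.3% with GC0643 and 7.59% to 9.99% with the vector, and ANXA2, with the largest share, is not drawn.

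Within libraries, the ratio of ANXA1 to ANXA2 per kilobase was 0.237, 0.229 and 0.209 with GC0643 and 0.144, 0.185 and 0.155 with the vector. The ratio of ANXA1 to ANXA6 was 0.968, 0.879 and 0.915 against 0.455, 0.751 and 0.378. For ANXA1 to ANXA5 it was 0.866, 0.853 and 0.852 against 0.572, 0.763 and 0.579. In each of these ratios the groups did not overlap, with ANXA1 the higher relative to its relatives in GC0643 overexpression.

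Differences between the groups went with GC content over the whole table, and the annexins lay along that slope. Over 19401 genes tested with a known GC content, Spearman's rho between log2 fold change and GC content was -0.67. Over the 7 annexins it was -0.86, which is a description over genes measured in the same libraries. Genes with a GC content of 40% to 45%, where ANXA1, ANXA4, ANXA5 and ANXA7 lie, had a median log2 fold change of 0.27 (3811 genes). Those of 50% to 55%, where ANXA6 and ANXA11 lie, had a median of -0.09 (3088 genes). A loess correction for GC content was therefore run within each library. As the slope is one between the groups, the correction also takes out any effect of GC0643 that follows GC content. Such an effect and a technical one cannot be told apart here.

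After the correction no gene passed an adjusted p of 0.05 (0 of 19528 genes, 0.0%). ANXA1 had a log2 fold change of 0.40 (95% interval 0.15 to 0.64, edgeR, adjusted p = 0.78), a fold change of 1.32. Its corrected values were 88.5, 93.8 and 84.9 CPM against 64.0, 79.4 and 59.8 CPM. ANXA11 had a log2 fold change of -0.24 (95% interval -0.44 to -0.05, edgeR, adjusted p = 0.78), with corrected values of 96.4, 108 and 103 CPM against 119, 115 and 129 CPM. They were the 2 members past the unadjusted p, 1 in each direction, against 2.87% of all genes in the higher and 3.24% in the lower direction.

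The other members came closer to 0, which follows in part from taking out the slope that they lay along. On the log2 scale ANXA4 went from 0.41 to 0.13 (95% interval -0.11 to 0.37) and ANXA5 from 0.24 to 0.02 (-0.16 to 0.21). ANXA2 went from 0.18 to 0.08 (-0.14 to 0.30) and ANXA6 from -0.18 to -0.09 (-0.26 to 0.09). ANXA7 went from 0.15 to -0.07 (-0.30 to 0.17), and all 5 intervals held 0. The median of the 7 annexins became 0.02. ANXA1 kept a positive sign with each library left out in turn as well as corrected, between 0.31 and 0.53.

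**Figure D4:**
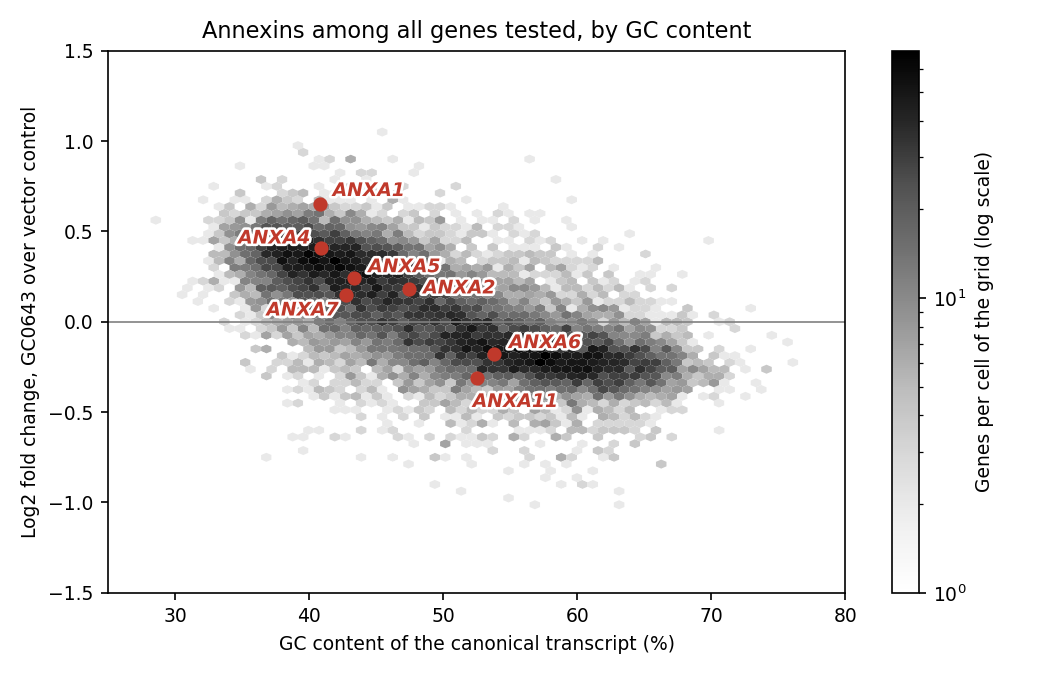
Log2 fold change, GC0643 overexpression over Vector control, against the GC content of the canonical transcript in percent, for all genes tested that have a GC value (grey cells, darker with more genes on a log scale) and for the 7 tested annexins (red points). The cloud falls from left to right, with ANXA1 at 40.8% and 0.65 and ANXA11 at 52.5% and -0.31, and 26 genes lie outside the vertical axis.

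With any other single library left out and no GC correction, 0 to 29 genes passed an adjusted p of 0.05 in edgeR's test. Leaving out Vector control replicate 2, the Vector control library nearest to the other group, changed the calls. Then 3813 of 19988 genes passed an adjusted p of 0.05 (19.1%), and 3 of the 7 annexins with them, ANXA1, ANXA4 and ANXA11. At an unadjusted p under 0.05 all 7 annexins passed, against 37.1% of genes. In this fit ANXA2 had a log2 fold change of 0.30, ANXA5 of 0.32, ANXA6 of -0.25 and ANXA7 of 0.33. Leaving out Vector control replicate 3 in its place moved them the other way, to 0.06 for ANXA2, 0.15 for ANXA5, -0.13 for ANXA6 and 0.00 for ANXA7. With Vector control replicate 2 left out and the GC correction as well, ANXA1 had 0.53 (edgeR, adjusted p = 0.18) and ANXA11 -0.28 (edgeR, adjusted p = 0.32).

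Genes that act with the annexins were read from lists by function, also chosen with earlier results of these data known. Of 19 genes of the S100 and scaffold partners, 14 were tested, of which 4 lay above 0 and 10 below it on the log2 fold change scale (median -0.08, against 0.02 for all genes tested). The unadjusted p was under 0.05 for none of the higher genes (13.1% of all genes) and 1 of the lower (5.26%), and after GC correction for none (2.87%) and 2 (3.24%). S100A3, a calcium-binding protein of hair follicles, was that gene, with a log2 fold change of -0.55 (95% interval -1.10 to -0.01), and it was not past that p after GC correction (-0.38, -0.87 to 0.11). S100A10, the partner of ANXA2, stood at 139, 149 and 138 CPM against 164, 150 and 177 CPM. The groups were separated by a narrow gap between their replicates 2, and the log2 fold change was -0.20 (95% interval -0.45 to 0.04) and -0.31 after GC correction (-0.54 to -0.08). The other lower gene after the correction was SRI, the calcium-binding protein sorcin, chosen after its values were seen, which had -0.05 before and -0.39 after it. AHNAK, a scaffold of the ANXA2 complex, had 0.32 (95% interval -0.00 to 0.65), and GCA, a penta-EF-hand protein at no more than 1.17 CPM in any library, had 0.79 (-0.09 to 1.68).

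The ratio of S100A10 to ANXA2 per kilobase was 0.679, 0.734 and 0.632 with GC0643 and 0.882, 0.703 and 1.16 with the vector, and the groups overlapped. That of S100A11 to ANXA1 was 2.95, 3.12 and 3.17 against 6.05, 3.70 and 6.92. Here the groups did not overlap, while S100A11 itself had a log2 fold change of -0.12 (95% interval -0.36 to 0.12). S100A8, S100A9 and S100A12, the S100 proteins of myeloid cells, had no count.

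Of 31 genes of plasma membrane repair, 28 were tested, 13 of them above 0 and 15 below it (median log2 fold change -0.04). Those past the unadjusted p of 0.05 were 6 in the higher and 4 in the lower direction, against 13.1% and 5.26% of all genes. After GC correction they were 2 and 1, against 2.87% and 3.24%. VPS4B, the ATPase that takes ESCRT filaments apart, stood at 21.6, 19.2 and 19.8 CPM against 13.9, 16.6 and 10.4 CPM (log2 fold change 0.57, 95% interval 0.20 to 0.94). PDCD6IP, the ESCRT adaptor ALIX, had 0.40 (95% interval 0.09 to 0.71), and SDCBP, the syntenin that binds it, had 0.40 (0.07 to 0.73). TRIM72, which in muscle patches torn membrane, had a log2 fold change of -1.08 (95% interval -1.85 to -0.31), at levels of 0.888 to 1.13 CPM with GC0643 and 1.31 to 3.37 CPM with the vector. After GC correction the log2 fold changes were 0.28 for VPS4B, 0.10 for PDCD6IP, 0.08 for SDCBP and -0.97 for TRIM72.

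Phosphatidylserine, the lipid that ANXA5 binds, is kept inside the cell by flippases and let out by scramblases. Of 26 genes listed for its exposure, 20 were tested, 11 above 0 and 9 below it (median log2 fold change 0.19). All 6 that passed the unadjusted p of 0.05 were higher with GC0643, against 13.1% of all genes. After GC correction 2 passed, also higher, against 2.87%, and the median of the list was 0.05. TMEM30A, the subunit that flippases need, stood at 46.8, 45.6 and 48.5 CPM against 28.7, 42.1 and 27.8 CPM (log2 fold change 0.52, 95% interval 0.18 to 0.86). The groups did not overlap and Vector control replicate 2 was the nearest. TMEM41B, a scramblase of the endoplasmic reticulum, had 0.41 (95% interval 0.09 to 0.72), and ATP8A1, a flippase, had 0.44 (0.06 to 0.83). After GC correction these were 0.20 for TMEM30A, 0.10 for TMEM41B and 0.11 for ATP8A1. Their GC contents were 36.9%, 38.3% and 38.9%.

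ANXA1 was first known as an inhibitor of phospholipase A2 and acts through formyl peptide receptors. Of 20 genes of this axis 11 were tested, 5 above 0 and 6 below it (median log2 fold change -0.08), and none passed the unadjusted p in either direction. The receptors FPR1, FPR2 and FPR3 had no count in any library. PLA2G4A, the cytosolic phospholipase, had a log2 fold change of 0.31 (95% interval -0.11 to 0.73) and LTA4H, of leukotriene synthesis, 0.24 (-0.08 to 0.55). PTGES2, of prostaglandin synthesis, had -0.25 (-0.50 to 0.01) and TRPM7, a channel kinase that phosphorylates ANXA1, had 0.33 (-0.04 to 0.69). NR3C1, the glucocorticoid receptor, whose ligands raise ANXA1 in other cells, had 2 counts in all, and was picked out after its values were seen.

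For fibrinolysis at the cell surface, in which ANXA2 takes part, 10 of 15 genes were tested, 3 above 0 and 7 below it (median log2 fold change -0.14). TFPI, an inhibitor of tissue factor, was the 1 gene past the unadjusted p, in the direction in which 13.1% of all genes passed it. It stood at 7.42, 6.56 and 6.16 CPM against 3.25, 5.19 and 4.12 CPM (log2 fold change 0.68, 95% interval 0.24 to 1.12, and 0.33, -0.05 to 0.70, after GC correction). PLAUR, the urokinase receptor, had -0.31 (95% interval -0.71 to 0.08), ENO1, an enolase that also binds plasminogen, -0.18 (-0.40 to 0.03), and PLGRKT, a plasminogen receptor, 0.29 (-0.09 to 0.68). PLG itself had no count. The intervals are from edgeR, and none of the genes of these lists passed an adjusted p of 0.05.

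Without Vector control replicate 2 some of them did. An adjusted p under 0.05 was then reached by 13 of 28 tested genes of membrane repair, 7 of 20 of phosphatidylserine exposure, 1 of 14 S100 and scaffold partners, 1 of 11 of fibrinolysis and 0 of 11 of the ANXA1 axis, against 19.1% of all genes. The log2 fold changes in this fit were 0.74 for VPS4B, 0.56 for PDCD6IP, 0.54 for SDCBP, -1.33 for TRIM72, 0.74 for TMEM30A, 0.54 for TMEM41B, 0.51 for AHNAK and 0.86 for TFPI, all past that threshold. ATP8A1 had 0.43 (edgeR, adjusted p = 0.12), S100A10 had -0.26 (edgeR, adjusted p = 0.1) and S100A3 had -0.63 (edgeR, adjusted p = 0.11).

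The genes whose profile over the 6 libraries was most like that of ANXA1 were sought among 11050 tested genes with a mean of at least 10 CPM. Likeness was the root mean square difference of centred log2 CPM with 0.5 added to each CPM. The nearest were CLK1, a kinase of splicing factors, and CENPC, a centromere protein, at 0.055 each, CERT1, a ceramide carrier, and G2E3, a ubiquitin ligase, at 0.056 each, and CCDC73 at 0.058. Their log2 fold changes were 0.74, 0.61, 0.63, 0.73 and 0.58, and values near the 0.65 of ANXA1 follow from the way the genes were chosen. Their GC contents were 38.6%, 38.1%, 44.5%, 32.8% and 33.4%, all below the median of the genes tested. As log2 fold change went with GC content over all genes, this is not separate from that choice.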

How the data were processed

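RNA of 6 HGC-27 libraries was measured, 3 per group. The authors made NEBNext Ultra libraries, used Trimmomatic 0.32 for trimming and HISAT2 2.1.0 for alignment to GRCh38, and deposited raw counts per Ensembl gene from featureCounts 2.0.0. The counting options are not stated for these libraries. For tumour tissue, with the same tools, the study counted uniquely mapped reads, let a read count for each gene it overlaps and lists no strand option, which was not assumed to hold here. Positions, transcript lengths and GC contents were taken from GENCODE version 44, in which 58472 of the 58825 Ensembl IDs were found.

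Genes kept by filterByExpr were scaled by TMM and fitted with edgeR 4.0.16 (R 4.3.3), with the group as the only term, by the quasi-likelihood test. The Benjamini-Hochberg adjustment ran over all 19528 genes tested. The biological coefficient of variation was 14.8%. CPM per kilobase divides TMM-scaled CPM by the canonical transcript length. The GC correction was a loess fit in each library (span 0.3, prior count 1). Family shares were compared by exact permutation tests in scipy 1.17.1. Alternatives were the likelihood ratio test, DESeq2 1.42.0, limma 3.58.1 voom, other scalings and filters, a replicate block, the GC correction and leaving out each library. The correction combined with leaving out libraries was added after seeing the data. The code was tested on simulated counts.

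The members and gene lists were chosen with earlier results of these data known. Named were all 10 annexins and their relatives, from every other list at most the 4 tested genes of smallest p, and the 5 profiles nearest to ANXA1. A gene that this rule takes is not reported here. S100A11, as the partner of ANXA1, SRI, NR3C1 and genes at 0 counts were named beside the rule, after their values were seen. Marker lists are given by range and counts. Intervals from counts of 0 cover counting error only.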

Additional observations from a re-analysis of the deposited data

How the results depend on the processing

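The sign of ANXA1, ANXA4, ANXA6 and ANXA11 was the same in every setting run, and ANXA1 lay between 0.50 and 0.90 with 1 library left out. Genes past an adjusted p of 0.05, 0 in the quasi-likelihood test, were 16 by the likelihood ratio test, 11 by DESeq2, 1 with DESeq2's size factors, 224 with no filter on low counts, 24 with a replicate block, 2 with the block and GC correction, and 0 to 3813 with 1 library left out, the most without Vector control replicate 2. Genes past a fold change of 1.5 with an unadjusted p under 0.05, 482 in the main test, were 936 with no filter, 293 with GC correction, 247 with the block and GC correction, and 406 to 2141 with 1 library left out. Annexins past that pair of thresholds, 1 at first (ANXA1), were 0 with GC correction, 0 with the block and GC correction, and 0 to 1 with 1 library left out. Annexins past an adjusted p were 1 with no filter and 0 to 3 with 1 library left out. Annexins past an unadjusted p, 3 at first (18.3% of all genes), were 1 with the block and GC correction and 1 to 7 with 1 library left out. The 7 were those without Vector control replicate 2, where 37.1% of all genes passed. For the other fits the share of all genes at this p is not given, so their counts are not read further. Partner list genes past the fold change and p were 2 at first, of 14, 28, 20, 11 and 10 tested in the lists, beside 482 of all 19528 genes. They were 4 with no filter, 1 with GC correction, 1 with the block and GC correction, and 2 to 9 with 1 library left out. The fit with 9 was the one without Vector control replicate 2, in which 2141 genes of the whole table passed. ANXA7 reversed to -0.07 with GC correction and to -0.06 with the block and GC correction. With GC correction and 1 library left out, ANXA7 had -0.01, -0.09, -0.09, -0.05 and -0.16 in 5 of 6 fits, ANXA5 had -0.01 and -0.00 in 2, and ANXA2 had -0.01 in 1. The share of ANXA7, lower with GC0643 by 0.0193 points, was higher by 0.286 on CPM, and its difference ran from -0.258 to 0.229 points with 1 library left out, and that of ANXA2 ran from -0.886 to 1.65. The cause of these changes was not tested. Replicate numbers were taken as names, as deviations of same-numbered libraries correlated at -0.22, -0.036 and -0.319. With the replicate block ANXA1 had a log2 fold change of 0.68 (edgeR, adjusted p = 0.13). Depth limits what can be said of ANXA3, ANXA8 and ANXA10.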
